A study of Mus musculus with 8 samples.

Results

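Ribosome biogenesis is the work of making ribosomes, most of which takes place in the nucleolus, and 39 genes of this process were followed after microRNA transfection. They were found as the array probes carrying any of 39 listed gene symbols, out of 30139 gene names. Probes were named by their RefSeq transcript where it was listed, and otherwise by the gene name given for them, current or older. Each gene was represented by its brightest probe. All 39 were measured, and all 39 were well above background on all 8 arrays.

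The cells were mSCC-20, a line from a cutaneous squamous cell carcinoma of FVB/N mice. They were transfected with miR-365a (2 arrays), miR-193b (2 arrays) or a control microRNA, NC (4 arrays). The labels also give an amount of 0.6 µg for both miR-365a arrays and for NC replicates 3 and 4, and of 0.2 µg for both miR-193b arrays and for NC replicates 1 and 2, without saying what the amount refers to. Each microRNA was compared with the 2 NC arrays of its own amount, called the 0.6 set and the 0.2 set. All arrays carry 1 tumour line, and the comparisons share no NC array.

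Ribosomal RNA is transcribed by RNA polymerase I, then cut, modified and folded together with ribosomal proteins. Box C/D and box H/ACA particles are guided by small nucleolar RNAs and carry out methylation and pseudouridylation, while separate sets of assembly factors build the small and the large subunit. Rapidly dividing tumour cells depend on this process, and many of its genes respond to MYC, which binds the sequence CACGTG (an E-box) with its partner MAX. A microRNA lowers messenger RNAs that pair with its seed, bases 2 to 8 of the mature strand.

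Mature strands of miR-365a and miR-193b are shown because their seeds define which messages they can pair with. The transfection labels do not name the strand, and the 3p strand was assumed for each. The sequences come from RefSeq on GRCm38.p6, where the miR-365a strand is listed as mmu-miR-365-3p. The capitals mark the seed, and the seeds differ.
mmu-miR-365-3p: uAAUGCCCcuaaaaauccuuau
mmu-miR-193b-3p: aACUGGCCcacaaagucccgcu
The strand of miR-365a is encoded on chromosome 16 (13453895 to 13453916) and again on chromosome 11 (79726467 to 79726488). That of miR-193b lies on chromosome 16 (13449570 to 13449591), all on the plus strand.

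The array probes hold only a short stretch of each message, so the seed was looked for in the probes as listed in the files. Among 58 probes of the 39 genes, GGGCATT, the match to the miR-365a seed, was found in 1 probe, that of Rrp1b, against 0.312% of all 39429 probes. GGCCAGT, the match to the miR-193b seed, was found in 0 of 58, against 0.294% of all probes. The probe of Rrp1b, a nucleolar protein gene, lies on mm9 chromosome 17 (32193829 to 32193888). The 30 bases around its match are shown with the match in capitals.
Rrp1b: gaatgacgctgtcagtGGGCATTctcagag
The log2 difference of Rrp1b after miR-365a was -0.43 ± 0.20 (SE, limma adjusted p = 0.200), so it was not called. A match in a probe is a description only, and messages outside the probes were not searched.

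The E-box CACGTG, which reads the same on both strands, was looked for in RefSeq promoter windows of 300 bases (250 before and 50 after the start of the gene). Of the 33 genes with a window, 4 held it (12.1%): Nop2, Utp20, Pes1 and Wdr43. Among all 27025 genes with a window, 8.09% held it. Utp20 and Wdr43 were also among the genes called after miR-365a, and their windows are shown with the motif in capitals. That of Utp20 is chr10:88826765-88827064 on the minus strand, and that of Wdr43 is chr17:71615965-71616264 on the plus strand (GRCm38.p6).
Utp20: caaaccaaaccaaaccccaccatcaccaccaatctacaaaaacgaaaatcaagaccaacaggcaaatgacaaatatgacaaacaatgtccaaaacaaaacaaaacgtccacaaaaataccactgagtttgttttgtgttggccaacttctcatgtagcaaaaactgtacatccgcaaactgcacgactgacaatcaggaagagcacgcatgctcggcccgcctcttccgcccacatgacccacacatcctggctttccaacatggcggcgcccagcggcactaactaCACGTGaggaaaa
Wdr43: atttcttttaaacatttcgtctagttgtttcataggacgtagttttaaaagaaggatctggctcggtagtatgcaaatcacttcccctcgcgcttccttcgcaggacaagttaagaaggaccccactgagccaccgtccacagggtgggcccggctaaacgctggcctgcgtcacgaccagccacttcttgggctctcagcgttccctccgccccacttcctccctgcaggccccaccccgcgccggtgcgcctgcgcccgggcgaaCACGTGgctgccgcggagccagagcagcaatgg
In both genes the motif lies shortly after the start. Of the 8 called genes, 6 had a window and 2 of these held the motif.

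Signals are given as log2 of the processed signal relative to the array's 75th percentile, so that a value of 0 equals that percentile. Errors of differences are standard errors of a fit to all 8 arrays, and a gene was called at a limma p under 0.05 after Benjamini-Hochberg adjustment over all 17850 genes tested. The share of spots well above background was 58.9% to 62.1% on the arrays of the 0.6 set and 51.4% to 54.6% on those of the 0.2 set, and 0 spots were saturated. Precision is limited by the small number of arrays, 2 in each group and set. Nothing in the labels says that replicates came from different cultures, and a p-value then reflects the spread of these arrays, which may be technical. All 10 squamous epithelial markers were well above background on every array. Of 6 fibroblast markers 1 to 3 were, with Col3a1, Dcn and Lum on no array. Of 6 leukocyte markers 4 or 5 were. The summed leukocyte marker signal, as a multiple of the 75th percentile, was 9.17 and 10.2 on the miR-365a arrays, against 6.34 and 8.18 on their NC arrays, and its part in the results was not tested.

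After miR-365a, 7 of the 39 ribosome biogenesis genes fell and 1 rose, and 31 were not called. The genes that fell were Tcof1, Rrs1, Rcl1, Cad, Bysl, Wdr43 and Utp20, and the one that rose was Polr1c. Of all genes tested, 8.05% were called lower and 7.84% higher in this comparison, 15.9% in all. The log2 differences ran from -1.003 to 0.68 with a median of -0.25, and the median over all genes was 0.02. Of the 39, 31 lay below 0, against 47.0% of all genes. On 24 genes both miR-365a arrays lay below both NC arrays and on 4 both lay above, against 27.8% and 33.7% of all genes. Leaving out 1 array of the 0.6 set lowered these counts: 0 of 39 were called without miR-365a replicate 1, without miR-365a replicate 2 or without NC replicate 3, with 9, 12 and 7 lower at an unadjusted p under 0.05, and 6 were lower without NC replicate 4. Leaving out 1 array of the 0.6 set also lowered the count of calls over all genes, so the loss was not particular to the 39. Without a filter on dim probes 3 of the 39 were called lower, while lower calls over all genes went from 1437 to 662.

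**Figure D1:**
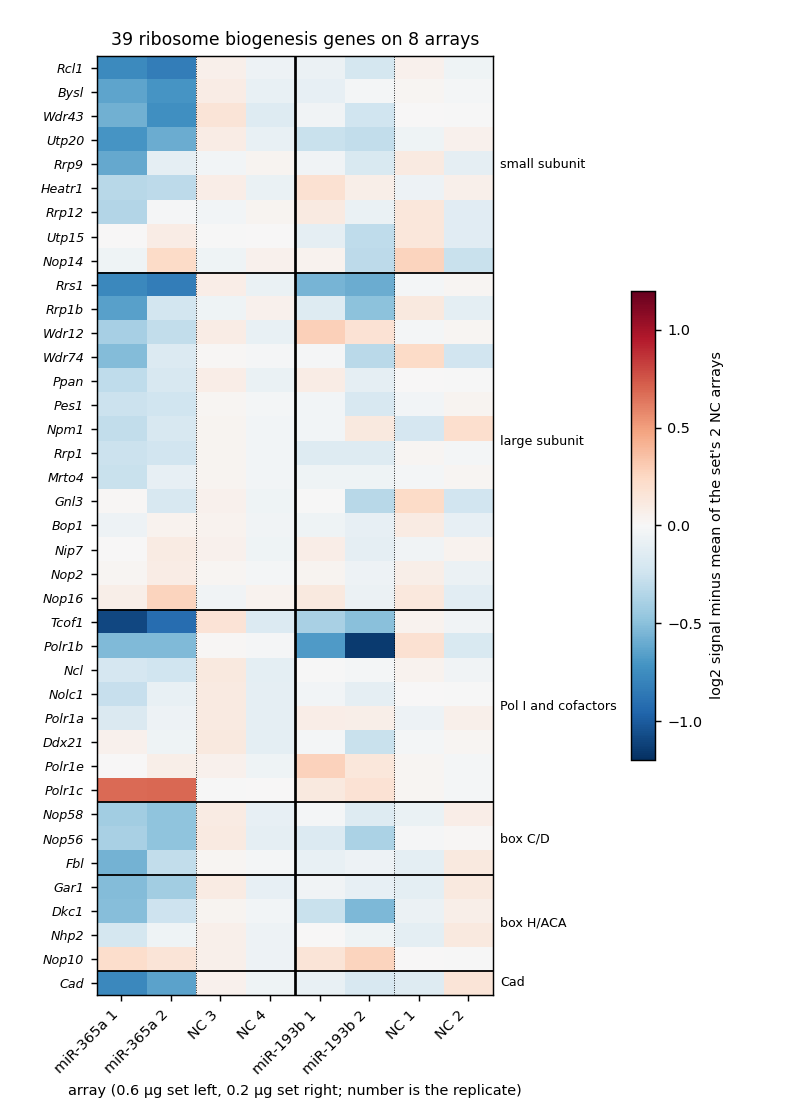
Signal of each gene (rows, grouped by role) on each array (columns) as the log2 difference from the mean of the 2 NC arrays of its set, blue for lower and red for higher. Both miR-365a columns are blue in most rows, deepest for Tcof1, Rrs1 and Rcl1, with Polr1c red in both.

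The 39 genes were also summarised on each array. Relative to the mean of the NC arrays of the set, the median of the 39 genes was -0.30 on miR-365a replicate 1 and -0.19 on replicate 2, with 30 genes below 0 on each. On NC replicate 3 it was 0.05 and on NC replicate 4 it was -0.05, with 7 and 32 genes below 0. The NC values are mirror images by construction, since each array is set against the mean of these same 2.

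Factors of the small subunit had the most calls. Of 9, 4 fell, 0 rose and 5 were not called, with a median of -0.36. Among all genes 8.05% were called lower. Of 51 other small subunit genes, from the wider list described below, 5 (9.80%) fell, near that share. Rcl1, which in yeast takes part in cutting the precursor of the small subunit RNA, had signals of 1.47 and 1.41 on the miR-365a arrays, against 2.30 and 2.18 on the NC arrays. Both miR-365a arrays lay below both NC arrays, and the gene fell 1.74-fold (log2 difference -0.80 ± 0.12, limma adjusted p = 0.00999).

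Bysl encodes bystin, an assembly factor of the small subunit. Its signals were 2.84 and 2.77 on the miR-365a arrays, against 3.55 and 3.38 on the NC arrays, without overlap. It fell 1.59-fold (-0.67 ± 0.12, limma adjusted p = 0.0159). Wdr43 and Utp20 encode factors of the small subunit processome, the particle that forms on the nascent precursor RNA. Wdr43 had 2.44 and 2.28 after miR-365a, against 3.17 and 2.86 in NC, and fell 1.57-fold (-0.65 ± 0.15, limma adjusted p = 0.0342). Utp20 had -1.34 and -1.23 after miR-365a, against -0.54 and -0.72 in NC, and also fell 1.57-fold (-0.65 ± 0.12, limma adjusted p = 0.0184). In both genes the groups did not overlap.

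The other 5 small subunit genes were not called. The differences were -0.36 for Rrp9, a U3 small nucleolar particle protein gene, -0.32 for Heatr1, -0.18 for Rrp12, 0.04 for Utp15 and 0.09 for Nop14. Rrp9 shows the widest gap between the miR-365a arrays of these, at 2.18 and 2.69, against 2.77 and 2.83 in NC. Wdr43 was not called with the 0.6 set fitted alone or with no filter on dim probes, while Rcl1 was called in each of the 9 other settings that kept all arrays.

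Of 14 factors of large subunit assembly, 1 fell (7.14%, against 8.05% of all genes), 0 rose and 13 were not called, with a median of -0.24. The one that fell was Rrs1, whose product in yeast brings the 5S particle into the growing large subunit. Its signals were 1.71 and 1.65 on the miR-365a arrays, against 2.57 and 2.40 on the NC arrays. The groups did not overlap and the gene fell 1.75-fold (-0.80 ± 0.11, limma adjusted p = 0.00887), the smallest p among the 39 genes.

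The other 13 ranged from -0.43 (Rrp1b) to 0.17 (Nop16). The 3 subunits of the PeBoW complex, which is needed for large subunit maturation, had -0.34 (Wdr12), -0.25 (Pes1) and -0.01 (Bop1). The brightest Wdr12 probe is placed on chromosome 7, while the gene is on chromosome 1, and its second probe had -0.17. Npm1, encoding the abundant nucleolar protein nucleophosmin, had -0.24, and Gnl3, encoding nucleostemin, -0.09. The methyltransferase gene Nop2 had 0.06 and Nip7 had 0.05. Beyond these brightest probes, a further probe of Nip7 was called lower (-1.40) and a further probe of Npm1 higher (0.47), as described below. The miR-365a arrays lay below both NC arrays on 9 of the 14 genes and above both on 2, against 27.8% and 33.7% of all genes.

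Among the RNA polymerase I subunits and nucleolar cofactors, the largest fall and the only rise stood side by side. Tcof1 encodes treacle, which recruits RNA polymerase I to ribosomal DNA. Its signals were 2.20 and 2.37 on the miR-365a arrays, against 3.45 and 3.12 on the NC arrays. The groups did not overlap, and Tcof1 fell 2.00-fold (-1.003 ± 0.15, limma adjusted p = 0.0105). Its second probe gave -0.96.

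Polr1c encodes a subunit shared by RNA polymerases I and III. It had 3.47 and 3.48 after miR-365a, against 2.79 and 2.79 in NC, and the arrays within each group were close together. It rose 1.61-fold (0.68 ± 0.10, limma adjusted p = 0.0104). Both genes were called in each of the 9 other settings that kept all arrays. Polr1b, the second largest subunit of the polymerase, had 1.24 and 1.24 after miR-365a, against 1.78 and 1.76 in NC. The groups did not overlap, but the difference of -0.53 ± 0.20 was not called (limma adjusted p = 0.123). The remaining 5 of the 8 genes were not called either, with -0.22 for Ncl (nucleolin), -0.19 for Nolc1, -0.12 for the largest subunit gene Polr1a, -0.00 for the helicase gene Ddx21 and 0.04 for Polr1e. These are values of the brightest probes. A further probe of Ncl (-3.05) and a further probe of Ddx21 (-1.02) were called lower, as described below.

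The box C/D core proteins lay close to each other. Nop58 had -0.45 ± 0.13 (limma adjusted p = 0.0649), Nop56 -0.44 ± 0.13 (adjusted p = 0.0751) and the methyltransferase gene Fbl -0.43 ± 0.14 (adjusted p = 0.0932). Limma called 0 of the 3, although all 3 had an unadjusted p under 0.05 and arrays that did not overlap. Of all genes, 27.8% lay lower after miR-365a without overlap. Nop58 had signals of 3.70 and 3.63 on the miR-365a arrays, against 4.21 and 4.02 on the NC arrays. Nop56 had 4.87 and 4.79 after miR-365a, against 5.37 and 5.16 in NC. Its second probe, placed on chromosome X and away from the gene, gave the same size of difference (-0.44).

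Of the 4 box H/ACA proteins limma called 0, with 2 lower at an unadjusted p under 0.05. Gar1 had 3.90 and 4.01 after miR-365a, against 4.53 and 4.33 in NC, a difference of -0.47 ± 0.14 (adjusted p = 0.0678). Dkc1, the pseudouridine synthase gene dyskerin, had -0.24 and 0.02 after miR-365a, against 0.30 and 0.23 in NC, a difference of -0.38 ± 0.15 (adjusted p = 0.148). Nhp2 had -0.13 and Nop10 had 0.18, so the members of this particle did not lie on one side of 0.

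Cad encodes the enzyme that starts pyrimidine synthesis, which supplies nucleotides for ribosomal RNA. Its signals were -4.67 and -4.54 on the miR-365a arrays, against -3.85 and -3.94 on the NC arrays. The groups did not overlap, and Cad fell 1.63-fold (-0.71 ± 0.14, limma adjusted p = 0.0249). Its difference was -0.37 with normexp background correction, where it was called, and -0.37 with the deposited log2 values, where it was not (limma adjusted p = 0.0577). The call was also lost with no filter on dim probes (adjusted p = 0.0800) and with a trended variance (adjusted p = 0.0532), and its adjusted p over all alternatives ranged from 0.0122 to 0.129.

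**Figure D2:**
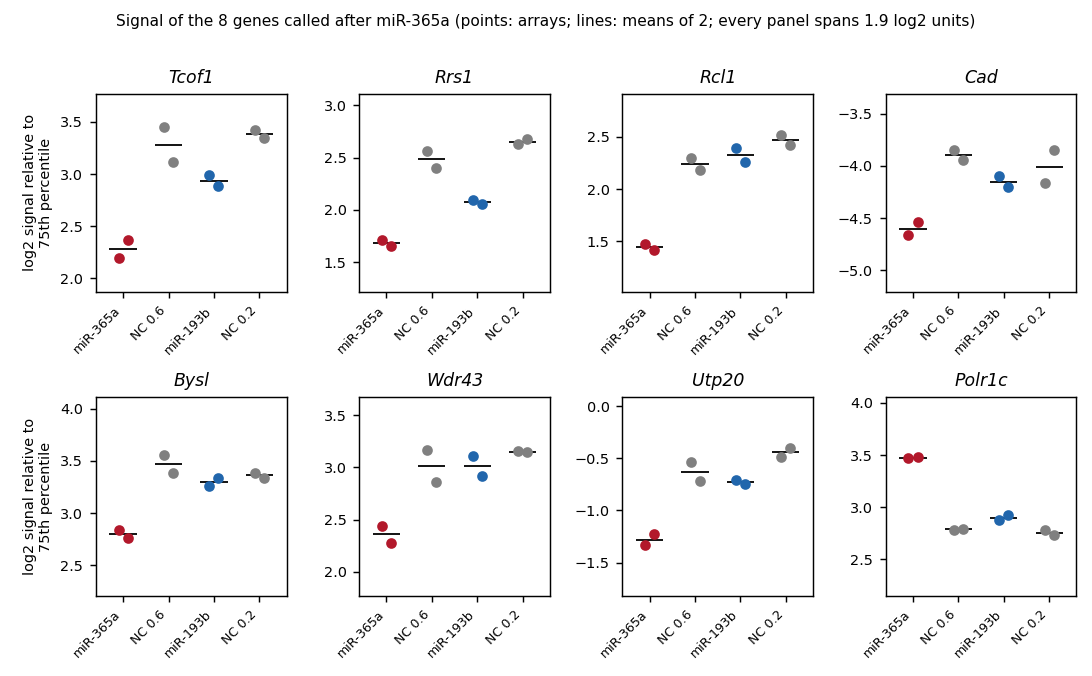
Log2 signal relative to the array's 75th percentile for the 8 genes called after miR-365a, with 1 point per array and a line at the mean of 2 arrays, for miR-365a, NC of the 0.6 set, miR-193b and NC of the 0.2 set. In every panel both miR-365a points lie apart from both NC 0.6 points, below them except for Polr1c.

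A wider list of 144 other ribosome biogenesis genes, of which 140 were tested, was set beside the 39. After miR-365a 10 of the 140 fell and 3 rose, with 127 not called. These are 7.14% and 2.14% of the list, against 8.05% lower and 7.84% higher among all genes, so the share lower is near that of all genes. Their median was -0.09, and 91 (65.0%) lay below 0. The smallest p-values belonged to Wdr46, Utp14a and Nop9 of small subunit processing and to Naf1, a maturation factor of H/ACA particles. Wdr46 had 2.45 and 2.51 after miR-365a, against 4.17 and 4.00 in NC (-1.61 ± 0.14, limma adjusted p = 0.00328). Utp14a had -2.71 and -2.72 after miR-365a, against -1.19 and -1.05 in NC (-1.60 ± 0.15, adjusted p = 0.00351). Naf1 had 1.97 and 1.97 after miR-365a, against 3.22 and 3.09 in NC (-1.19 ± 0.11, adjusted p = 0.00374). Each of these differences, as well as that of Nop9 (-1.61 ± 0.16, adjusted p = 0.00447), was greater in size than that of any of the 39 genes. The genes that rose were Zfp622 (0.50), Polr2e (0.50) and Nvl (0.42). Ddx52 had the highest difference, 5.17, and was not called. Its signals were 2.31 and 2.07 after miR-365a, against 2.20 and -8.16 in NC, so that NC replicate 4 alone lay apart. Within the wider list 5 of 51 small subunit genes (9.80%) and 4 of 50 large subunit genes (8%) fell, near the 8.05% of all genes. The counts lower were 1 of 9 for snoRNP assembly, 0 of 16 for the RNA polymerase I machinery and 0 of 14 for the nuclear exosome. The last 2 groups had 2 and 3 lower at an unadjusted p under 0.05.

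Genes of the ribosomal proteins themselves were not called lower in the cytosolic set. Limma called 0 of 83 cytosolic ribosomal protein genes after miR-365a, with 0 at an unadjusted p under 0.05, and their median was -0.03. Of 78 mitochondrial ribosomal protein genes 4 fell (5.13%), with 0 higher and 74 not called, and with a median of -0.07. Among all genes 8.05% were called lower and 7.84% higher, so the share lower does not exceed that of all genes.

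**Figure D3:**
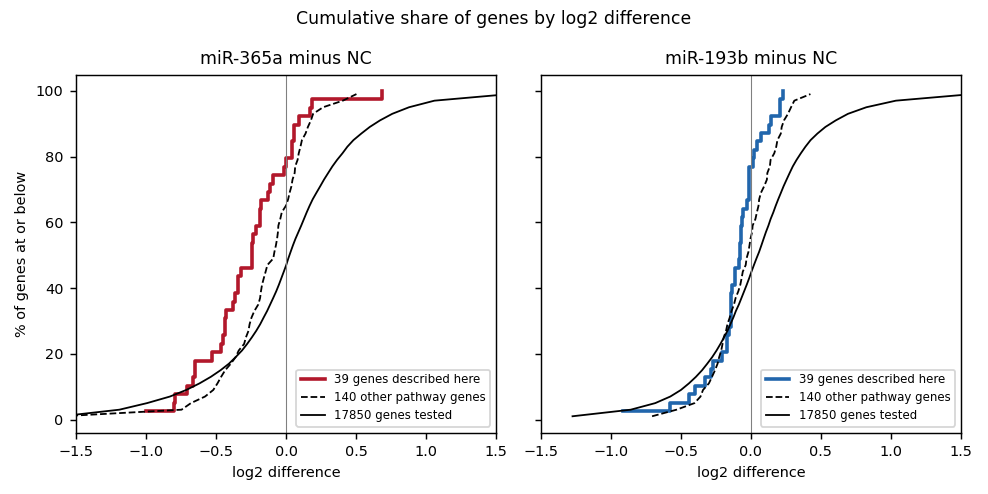
Cumulative share of genes (vertical axis, %) at or below each log2 difference from NC (horizontal axis, shown from -1.5 to 1.5) for miR-365a on the left and miR-193b on the right. The coloured line of the 39 genes crosses 50% at -0.25 after miR-365a and at -0.08 after miR-193b, left of the line of all 17850 genes, which crosses at 0.02 and 0.05.

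The 15 genes with over 1 probe had 19 further probes, and these did not all follow the brightest one. The 6 further probes downstream of the brightest, towards the end of the gene, were set apart after their values were seen. After miR-365a 5 of the 6 were called lower in a fit of all detected probes singly. In that fit 8.04% of all 23275 probes were called lower and 7.73% higher. Among the 1815 further probes of any gene that lie downstream of its brightest probe, 12.9% were called lower and 6.23% higher. Of 10 further probes upstream, limma called 0 lower (1 at an unadjusted p under 0.05) and 1 was called higher, an Npm1 probe (0.47 ± 0.11, adjusted p = 0.0349), against 6.08% lower and 9.02% higher among 3436 such probes of all genes. The other 3 further probes lie on other chromosomes than the brightest.

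Nucleolin showed the widest gap. Distances between probes were taken along the mm9 genome and not along the message. The downstream Ncl probe, 6437 bases beyond the brightest, had -3.11 and -2.91 on the miR-365a arrays, against -0.12 and 0.19 on the NC arrays. The groups lay far apart, with a difference of -3.05 ± 0.27 (limma adjusted p = 0.00352), while the brightest Ncl probe had 5.53 and 5.50 after miR-365a, against 5.85 and 5.61 in NC (-0.22). Nip7, whose product acts in the processing of precursor RNA, had a probe 2014 bases downstream with -1.24 and -1.13 after miR-365a, against 0.22 and 0.20 in NC (-1.40 ± 0.13, adjusted p = 0.00371), and 0.05 at the brightest probe. Ddx21 had a probe 1545 bases downstream with 0.79 and 0.71 after miR-365a, against 1.88 and 1.66 in NC (-1.02 ± 0.13, adjusted p = 0.00796). Its brightest probe had -0.00. All these further probes were well above background on every array. For Tcof1 and Wdr43 the downstream probes (-0.96 and -0.95) were called as the brightest ones were. Which transcript ends these probes detect was not analysed here. After miR-193b limma called 0 of the 19 further probes, with 3 at an unadjusted p under 0.05, while 1.02% of all probes were called lower and 1.29% higher. With the mean of all probes of a gene in place of the brightest, 9 of the 39 genes were called lower.

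**Figure D4:**
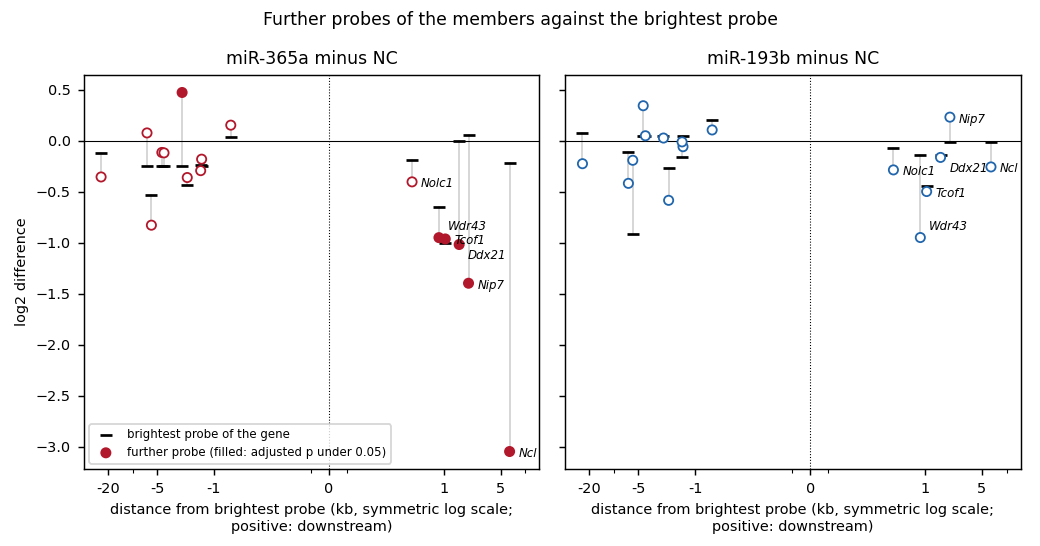
Log2 difference from NC of each further probe (circles, filled where the adjusted p is under 0.05) and of the brightest probe of its gene (dashes). The horizontal axis is the distance between them along the genome in kb, positive downstream. After miR-365a the filled circles of Ncl, Nip7 and Ddx21 lie below the dashes of their genes, and after miR-193b no circle is filled.

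After miR-193b, limma called 0 of the 39 genes lower and 0 higher, with 4 lower and 0 higher at an unadjusted p under 0.05. Of all genes 1.17% were called lower and 1.73% higher, 2.9% in all. The differences ran from -0.91 to 0.23 with a median of -0.08, against 0.05 over all genes, and 30 of the 39 lay below 0, against 44.4% of all genes. Both miR-193b arrays lay below both NC arrays on 13 genes and above them on 6, against 22.4% and 29.9% of all genes. Within slide 1 (miR-193b replicate 1 and NC replicate 1) the median was -0.03, and across slides 2 and 3 it was -0.11. The median depended on the scaling, at -0.17 with normexp background correction, -0.16 with quantile normalization and -0.17 with the deposited log2 values. In these settings the median of all genes moved down too, so the gap to it changed less than the median itself. Without miR-193b replicate 2 the median of the 39 genes was -0.03. The count lower was 2 in 4 of the other settings and 1 in another.

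The genes nearest to a call were Rrs1 and Polr1b. Rrs1 had 2.10 and 2.06 on the miR-193b arrays, against 2.63 and 2.68 on the NC arrays of the 0.2 set. The groups did not overlap, and the difference was -0.58 ± 0.11 (limma adjusted p = 0.0545). Polr1b had 1.28 and 0.81 after miR-193b, against 2.14 and 1.77 in NC, a difference of -0.91 ± 0.20 (adjusted p = 0.0673) with more spread within both groups. Within slide 1 the differences were -0.53 for Rrs1 and -0.87 for Polr1b, and across slides 2 and 3 they were -0.62 and -0.96. Rrs1 was called in 5 and Polr1b in 4 of the 9 other settings that kept all arrays.

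Tcof1 had 2.99 and 2.88 after miR-193b, against 3.42 and 3.34 in NC, without overlap (-0.44 ± 0.15, adjusted p = 0.165). Dkc1 had 0.09 and -0.18 after miR-193b, against 0.28 and 0.43 in NC (-0.40 ± 0.15, adjusted p = 0.202). Of the other genes called after miR-365a, Utp20 had -0.71 and -0.74 after miR-193b, against -0.49 and -0.40 in NC, a difference of -0.28 ± 0.12 (adjusted p = 0.238). The differences of Rcl1 (-0.14), Wdr43 (-0.14), Cad (-0.14) and Bysl (-0.06) were nearer to 0, and Polr1c had 0.15. The second Wdr43 probe, well above background on every array, had -0.95 ± 0.22 after miR-193b (limma adjusted p = 0.0825), close to its -0.95 after miR-365a, and the mean of both probes gave -0.54 after miR-193b. In the small subunit group the smallest unadjusted p was that of Utp20, and in the box C/D group that of Nop56 (-0.27 ± 0.13, adjusted p = 0.297).

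Of the 140 other ribosome biogenesis genes, 1 fell after miR-193b, 0 rose and 139 were not called, with a median of -0.02. It was Riok2, encoding a kinase of late small subunit maturation, with 2.07 and 1.68 after miR-193b, against 3.04 and 2.93 in NC (-1.10 ± 0.16, limma adjusted p = 0.0305). Limma called 0 of 83 cytosolic ribosomal protein genes, with 1 at an unadjusted p under 0.05, and 80 of the 83 lay above 0 with a median of 0.24. Over all genes the median was 0.05, and 44.4% lay below 0. Between the NC arrays of the sets, 79 of the 83 were higher in the 0.6 set, with a median of 0.22. The part of the NC arrays of the 0.2 set in this shift was not tested.

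**Figure D5:**
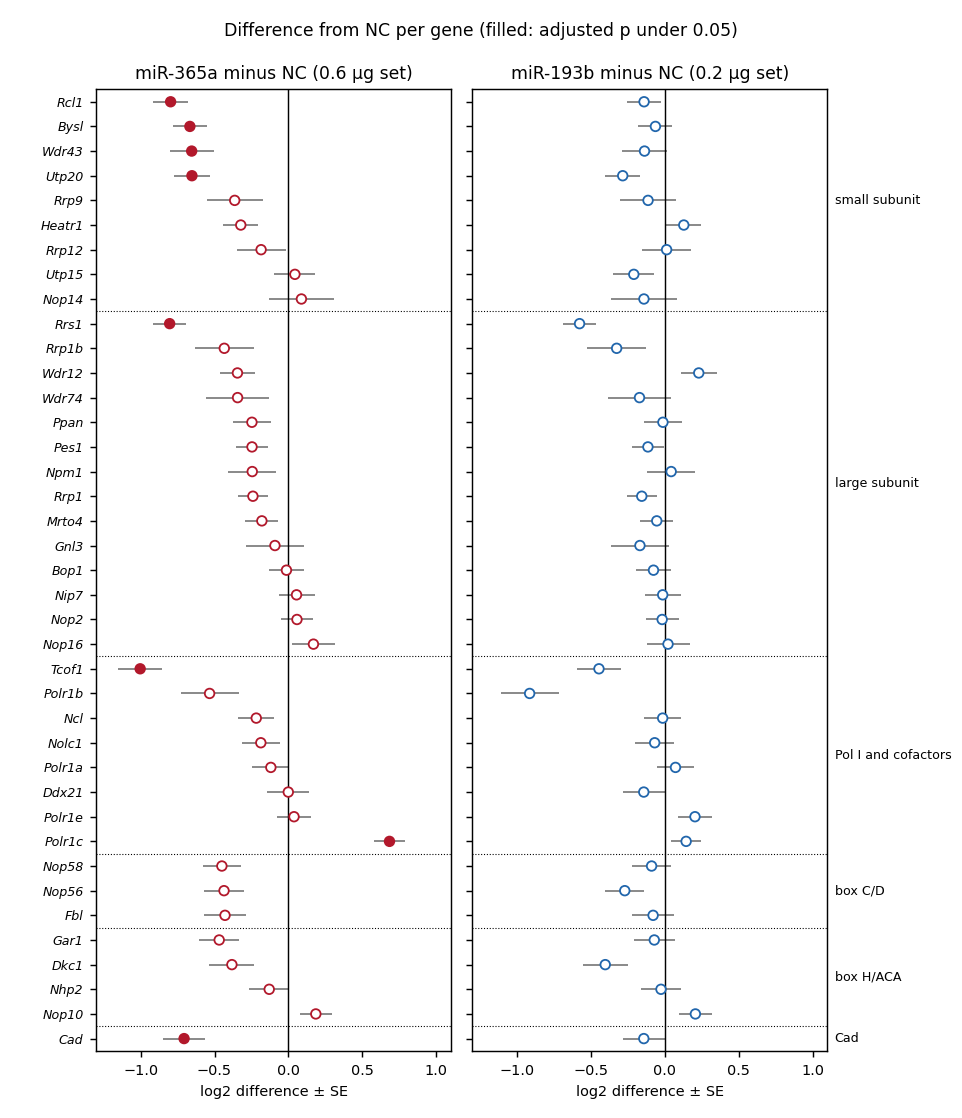
Log2 difference from NC (points) ± SE (bars) of the 39 genes by role, miR-365a on the left and miR-193b on the right, filled where the adjusted p is under 0.05. The 8 filled points are all in the miR-365a panel, where Tcof1 is lowest at -1.003 and Polr1c highest at 0.68, and Polr1b is lowest in the miR-193b panel at -0.91.

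The effects of the microRNAs were compared as a contrast of the same fit. Limma called 0 of the 39 genes, with 8 at an unadjusted p under 0.05, while 3.54% of all genes were called, 2.41% as lower and 1.13% as higher. The difference between the effects of miR-365a and miR-193b was -0.66 ± 0.16 for Rcl1 (adjusted p = 0.0874), -0.60 ± 0.16 for Bysl (adjusted p = 0.105) and 0.54 ± 0.14 for Polr1c (adjusted p = 0.102), the 3 genes with the smallest p. For Tcof1 it was -0.56 ± 0.21 (adjusted p = 0.214), and for Rrs1 -0.23 ± 0.16 (adjusted p = 0.478). The 8 genes called after miR-365a are thus not shown to respond differently to miR-193b. Of the 140 other genes 3 differed, Wdr46 (-1.90 ± 0.19, adjusted p = 0.0144), Utp14a (-1.83 ± 0.21, adjusted p = 0.0156) and Naf1 (-0.96 ± 0.16, adjusted p = 0.0327), each lower after miR-365a.

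Across the 39 genes, 26 had a negative difference after both microRNAs, 4 a positive one after both and 9 opposite signs. Since 31 lay below 0 after miR-365a and 30 after miR-193b, many would be negative after both even if the effects were unrelated. The same counts and correlations were not computed over all genes, so a response shared by these genes in particular is not shown. Pearson's r between the differences was 0.54 and Spearman's rho 0.53 over 39 genes, which are not independent replicates. The sets also differ in amount, slide and scan, and for a difference between the microRNAs these cannot be told apart from the microRNA.

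The NC arrays of the sets were compared with each other as a measure of that gap. Of the 39 genes 3 were higher in the 0.6 set and 0 lower, with 3 lower at an unadjusted p under 0.05, while limma called 11.6% of all genes higher and 4.04% lower. The 3 were Rrp9 (2.77 and 2.83 in the 0.6 set, against 2.15 and 1.93 in the 0.2 set), Bop1 (4.11 and 4.01, against 3.59 and 3.40) and Pes1 (2.82 and 2.78, against 2.24 and 2.31). Their differences were 0.75 ± 0.19 (adjusted p = 0.0459), 0.56 ± 0.12 (adjusted p = 0.0301) and 0.52 ± 0.11 (adjusted p = 0.0294), beside a shift of 0.12 in the median of all genes. None of the 3 was called after either microRNA.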

How the data were processed

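RNA of 8 samples was measured with Cy3 on Agilent single-colour arrays. The deposited scanner values are spot intensity after background subtraction by Feature Extraction 10.7.3.1, per the file headers, and are not normalized between arrays. Probe positions are on mm9. A deposited table of log2 values of the same arrays served as an alternative, for which the submitters' processing notes name limma.

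After removal of control spots and outlier flags, the 75th percentile of each array was subtracted from the log2 signal, spots of 1 probe were averaged, and of 39429 probes the brightest per gene was kept. Testing required signal well above background on both arrays of 1 or more of the 4 transfection and set combinations (17850 of 30139 genes). Limma 3.58.1 (R 4.3.3) was fitted to all 8 arrays with terms for the set and each microRNA, leaving 4 residual degrees of freedom plus 2.30 prior ones, with Benjamini-Hochberg adjustment. Probes were also fitted singly (23275).

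On simulated data of 17850 genes, 67 were changed by 0.5 on the log2 scale, 67 by 1 and 66 by 2. After miR-365a 13.4% of those changed by 1 and 74.2% of those changed by 2 were called. After miR-193b these shares were 17.9% and 77.3%, with 4 false calls in each comparison. Of 67 genes changed by 0.5, 0 were called after miR-365a and 1 after miR-193b. In the data more genes were called, 2836 after miR-365a and 517 after miR-193b. The adjustment is stricter when fewer genes change, so the simulated shares do not give the chance of a call in the data.

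The members and lists were chosen with earlier results of these data known. Some marker results are not reported here. Full statistics are given for called genes and for the smallest p in each role group, and up to 4 called genes of the wider list are named per comparison. Genes named beyond these, and the grouping of further probes by side, were chosen after their values were seen. Alternatives covered background correction, normalization, filter, set, variance, slide, probes per gene and each array left out. Python 3.11.15, pandas 2.3.3, numpy 2.4.6 and matplotlib 3.10.9 were used for the rest.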

Additional observations from a re-analysis of the deposited data

Results flagged for a closer look

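Among the 4 NC arrays, 1 array stood apart from the other 3 for 7 of the 39 genes, by the gap to its nearest neighbour over the whole range. Chance would flag about 1 in 20 groups of arrays that are alike. On NC replicate 1 the log2 signal of Polr1b was 2.14, next to 1.78 on the nearest array, and that of Nop14 was 1.67, next to 1.17. On NC replicate 2 Fbl was at 3.56, next to 3.32, and Polr1c at 2.73, next to 2.78. On NC replicate 3 Nop10 was at 4.63, next to 4.53. On NC replicate 4 Nolc1 was at 4.80, next to 5.02, and Wdr43 at 2.86, next to 3.15. The NC arrays span both sets, which differ in amount, slide and scan. The rate of 1 in 20 therefore does not apply to them, and 7 of 39 is not shown to exceed chance. Of these genes only Polr1c and Wdr43 were called after miR-365a.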

How the results depend on the processing

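The count of genes lower after miR-365a was 7 as reported and 3 with no filter on dim probes. It was 10 with normexp background correction, with probes well above background on all 8 arrays or with a trended and robust variance, 9 with the deposited log2 values, with slide as a random block or with the mean of all probes, 8 with quantile normalization and 7 with each set fitted alone. Leaving out 1 array gave 0 to 7, and 0 to 1 for the count of genes higher, with 0 in both directions without miR-365a replicate 1, miR-365a replicate 2 or NC replicate 3. The median after miR-365a was -0.33 to -0.19 with 1 array left out, lowest without NC replicate 4 (-0.33).

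After miR-193b the count lower was 0 as reported, with 2 under normexp, the deposited log2 values, probes well above background on all 8 arrays and the trended variance, and 1 under quantile normalization. It was 0 in the other settings and with each array left out, and 0 were higher in all. The median was -0.17 with normexp, -0.16 with quantile normalization and -0.17 with the deposited log2 values, while the median of all genes moved to -0.01, -0.00 and -0.01, and it was -0.11 to -0.03 with 1 array left out. The count with a different response was 1 with normexp, 3 with the trended variance, 1 with the mean of all probes and 0 otherwise. The difference of Cad after miR-193b was -0.30 to 0.017 with 1 array left out and that of Gar1 -0.19 to 0.051, both turning without NC replicate 2 (0.017 and 0.051), and neither was called. The causes were not tested. The labels give no replicate numbers to pair arrays by, and slide was used as a block instead.

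Signals of the 39 genes were above background on all arrays. In the simulation, at 2 arrays per group, most 2-fold changes were not called, and other numbers of arrays were not simulated. Few genes were changed in it, so that share does not carry over to the data. Where a setting leaves 1 array in a group, that array is assumed to vary like the others.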
